A study of Mus musculus with 8 samples.

Results

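The genes of the proteasome were examined in C2C12 cells, a mouse myoblast line, after silencing of the long non-coding RNA Pvt1. Members were taken from the array design by their gene symbol, as every gene whose name begins with Psma to Psmg and a number, without Psmb8, Psmb9 and Psmb10, which belong to the immunoproteasome. This gave 46 genes with 90 probes out of 37074 symbols and 56605 probes. Of these genes, 16 coded for the core particle (Psma and Psmb), 24 for the regulatory particles and activators (Psmc, Psmd and Psme) and 5 for the inhibitor Psmf1 and the assembly chaperones Psmg1 to Psmg4. Psmc3ip fits the name but codes for a recombination factor, not for a subunit, and its value is given apart, though the counts over all 44 tested members include it. All 46 genes were matched to RefSeq by accession (assembly GRCm38.p6), and none carried another symbol there.

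The study hybridised Cy3-labelled RNA from 8 cultures of proliferating C2C12 myoblasts at passage 10 to 8 one-colour arrays on 1 slide. In 4 cultures Pvt1 was silenced by lipid transfection of antisense LNA GapmeRs, oligonucleotides that direct the cleavage of the RNA they pair with. The 4 control cultures (Mock) received negative control GapmeRs with the same lipid, Lipofectamine, so both groups share the transfection. The labels name 2 GapmeRs against Pvt1, shown here as the reagent that defines the silenced group, without saying whether they were pooled:
Pvt1_1: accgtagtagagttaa
Pvt1_3: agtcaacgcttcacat

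The proteasome degrades proteins that carry chains of ubiquitin, and in skeletal muscle it is the main route by which myofibrillar proteins are removed during atrophy. Its core particle is a barrel of stacked rings, with alpha subunits on the outside and beta subunits on the inside, where Psmb5, Psmb6 and Psmb7 hold the active sites. The regulatory particle sits on the end of the barrel. Its ATPases unfold the substrate, while its other subunits bind ubiquitin and take it off.

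Values are log2 of the processed spot signal after quantile normalization between arrays, and a gene is described by its brightest tested probe unless another is named. The share of spots positive and significant was 51.6% on silenced replicate 4 and 58.8% to 62.5% on the other 7 arrays. Control replicate 3 correlated with its fellow controls at a mean of 0.962, and the remaining arrays with theirs at 0.979 to 0.985. Of 8 myoblast markers, 6 were well above background on all control arrays and 7 on all silenced arrays, and Myf5 was on none. Their summed linear signal was 103300 to 123900 in controls and 68340 to 88280 in silenced cells. Of 13 hepatocyte markers on the array, 3 were well above background on all control arrays and 8 on all silenced arrays (Apoa1, Apoc3 and Cyp3a11 on none). The sum over this list was 1154 to 1945 in controls and 5625 to 6771 in silenced cells. The summed signal of 5 immune markers was 1775 to 1831 and 4057 to 6894, with Adgre1 on no array, that of 3 adipocyte markers 133 to 232.7 and 269.3 to 526.1, with Adipoq on no array, and the 4 endothelial markers were on no array. These sums differ between the groups compared below, and their part in the members' values was not tested.

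Pvt1, the target, was read first (brightest probe NR_003368, chr15:62081020-62081079, mm9, plus strand). Its log2 signal on control arrays 1 to 4 was 9.65, 9.79, 10.31 and 9.70, and on silenced arrays 1 to 4 it was 7.09, 6.69, 7.85 and 6.39. Every silenced culture lay below every control culture, with a change of -2.86 (SE 0.32, limma adjusted p 0.000682).

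Most proteasome genes did not pass the test. Of the 44 genes that could be tested, 3 were lower in silenced cells (Psmb7, Psmd11 and Psme3), 1 was higher (Psmg3) and 40 were not called, at a limma adjusted p under 0.05 (39 of 43 without Psmc3ip). Over all 19360 genes by their brightest probe, 14% were lower and 5.99% higher. In the core particle 1 of 14 tested genes was lower and none higher, and in the regulatory particle 2 of 24 were lower and none higher. All these counts rest on quantile normalization. After a shift of each array to its 75th percentile 22 members were called higher and 2 lower, beside 7075 higher and 4365 lower over all probes. In bulk cultures, fewer cells of a type and less RNA per cell cannot be told apart.

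The groups did not overlap in 10 of the 44 genes. Psmb5, Psmb7, Psmc4, Psmd9, Psmd11 and Psme3 were lower on all 4 silenced arrays, where 18.9% of all genes were, and Psmb2, Psmc3, Psme2b and Psmg3 were higher, where 7.10% of all genes were. For Psmb5 the gap was below the printed digits, with 14.35 on control replicate 1 and on silenced replicate 1. The median change was 0.00 over the core particle and -0.14 over the regulatory particle, beside -0.19 over all tested probes, -0.09 over all genes by their brightest probe and -0.08 over the 3253 tested probes with a mean log2 signal of at least 13. The regulatory particle thus lay above the first of these medians and below the other two. Proteasome genes are among the brighter ones on this array, and 32 of the 44 reached that level. Of those bright probes, 13.6% were lower and 2.46% higher.

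**Figure D1:**
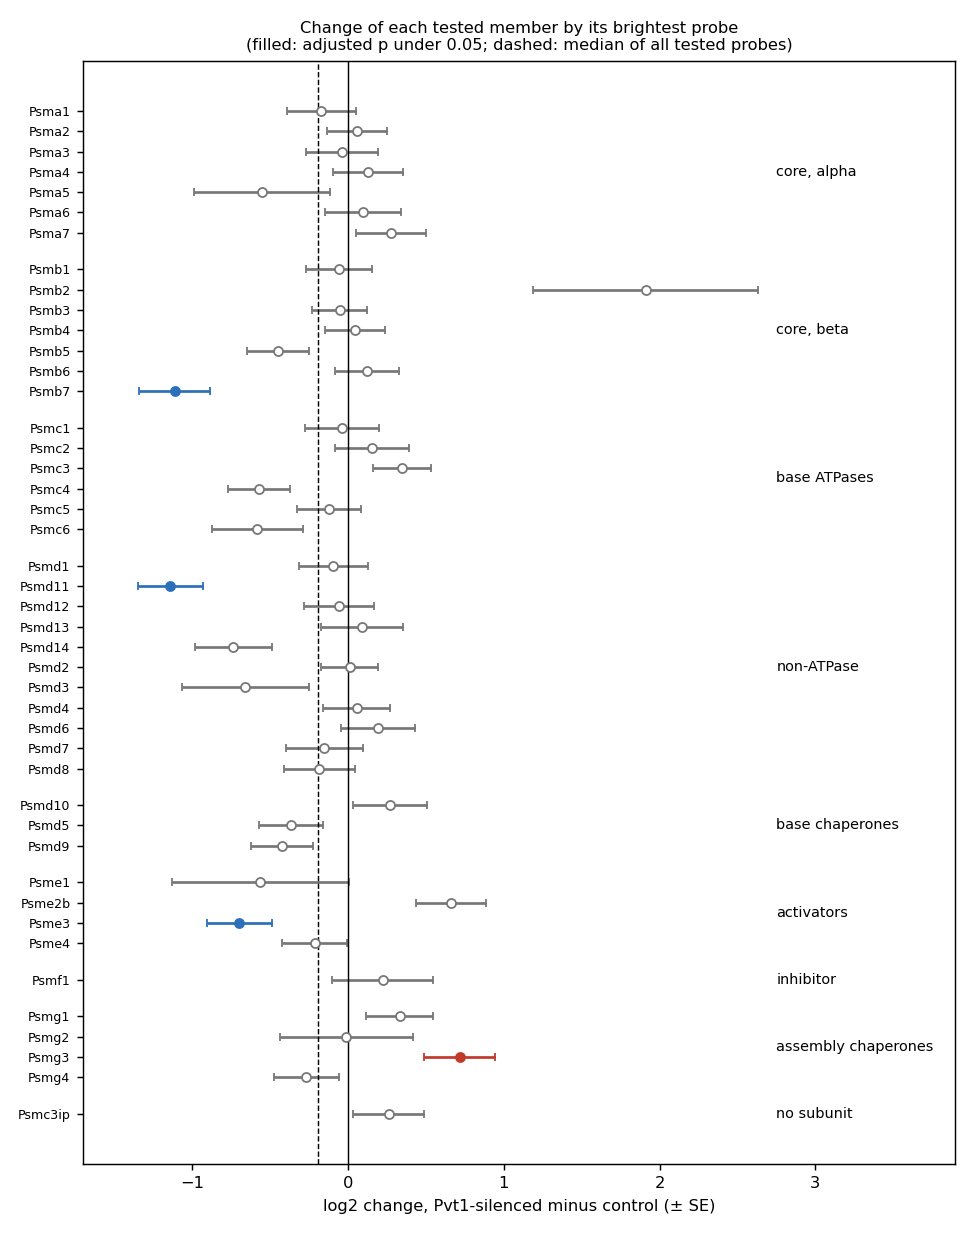
Change of each of the 44 tested members by its brightest probe, as log2 signal in Pvt1-silenced minus control cells on the x axis, with the gene on the y axis grouped by role. Points are fitted changes with bars of 1 SE, filled where the limma adjusted p was under 0.05, and the dashed line is the median of all tested probes (-0.19). Psmb7, Psmd11 and Psme3 are filled on the left and Psmg3 on the right, while most others lie between -0.6 and 0.4.

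Among the alpha subunits, which form the gate of the barrel, none of the 7 tested genes (Psma1 to Psma7) was called by limma, none had an unadjusted p under 0.05, and none was called by the methods' t-test with Benjamini-Hochberg adjustment. Their changes ran from -0.55 for Psma5 to 0.27 for Psma7, with adjusted p-values of 0.398 and above. Psma5 was low in a single culture: it read 13.21 on silenced replicate 4, while silenced replicates 1 to 3 read 14.81 to 15.51 and controls 14.87 to 15.60. Psma8, an alpha subunit known from testis, and Psmb11, a beta subunit known from thymus, were not tested, as they had too few values (Psma8 on no array, Psmb11 on 1 control array).

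Of the beta subunits with an active site, Psmb7 fell while Psmb5 and Psmb6 were not called. Psmb7, the subunit with trypsin-like activity, had log2 signals of 14.35, 14.61, 14.25 and 14.56 on control arrays 1 to 4 and of 13.46, 13.71, 12.86 and 13.31 on silenced arrays 1 to 4. The lowest control culture lay above the highest silenced culture, and the signal in silenced cells was 46.3% of that in controls (change -1.11, SE 0.23, adjusted p 0.00795). The array holds 1 probe for it (NM_011187, chr2:38468966-38489385, mm9, minus strand), which starts at base 500 of the transcript and whose coordinates span an intron.

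Psmb5, the subunit with chymotrypsin-like activity, had 14.35, 14.69, 14.91 and 14.65 on control arrays and 14.35, 14.32, 14.05 and 14.09 on silenced arrays. All silenced values lay at or below the lowest control value, but the change of -0.45 (SE 0.20) did not pass the test (adjusted p 0.133). Under the shift of each array to its 75th percentile its sign turned, to 0.15. For Psmb6, the subunit with caspase-like activity, the values were 15.16, 15.46, 15.77 and 15.52 in controls and 15.52, 15.42, 15.84 and 15.60 in silenced cells, which overlap (change 0.12, SE 0.21, adjusted p 0.722).

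The 3 active-site subunits were read at unlike places, Psmb5 at base 607, Psmb6 at base 768 and Psmb7 at base 500. The differences between them were not tested. The structural beta subunits Psmb1, Psmb3 and Psmb4 changed by -0.06, -0.05 and 0.04, with overlapping groups.

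Psmb2, a further beta subunit without an active site, had the largest computed rise of any member, 1.91 (SE 0.72), and was not called (adjusted p 0.0845). Its log2 signal was 10.36, 10.77, 7.08 and 10.68 on control arrays 1 to 4 and 11.79, 11.78, 11.66 and 11.32 on silenced arrays 1 to 4. All silenced arrays were above all control arrays, and control replicate 3 was far below the other controls. Without that array the change was 1.03, with an adjusted p of 0.00995. A second probe, starting at base 269 and overlapping the first, had 10.18, 10.71, 6.87 and 10.49 in controls against 11.41, 11.72, 11.38 and 11.22. The probe at base 1580 of the cDNA AK164463 had 8.66, 9.09, 9.15 and 8.77 against 9.58, 9.45, 10.03 and 8.92, a change of 0.57 (SE 0.26, adjusted p 0.145), so control replicate 3 was not low there.

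**Figure D2:**
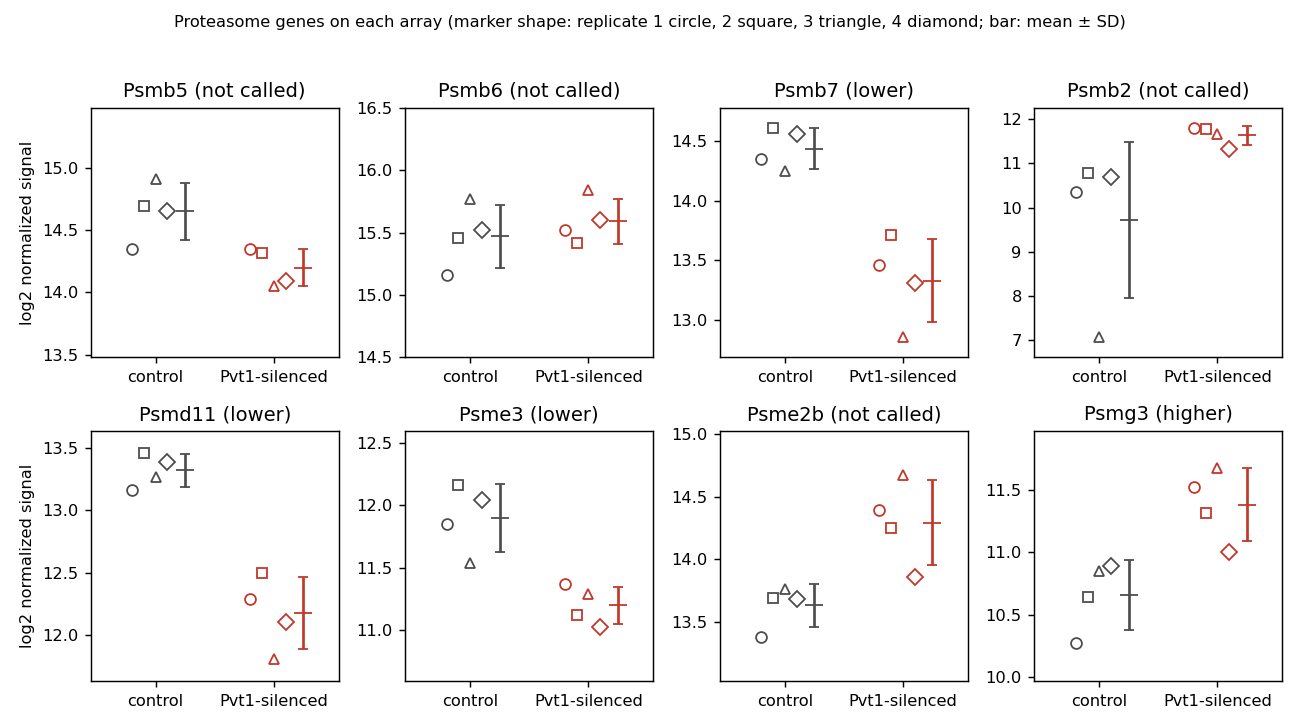
Log2 normalized signal (y axis) of 8 members on the 4 control and 4 Pvt1-silenced arrays (x axis), with 1 marker shape per replicate number and a bar for the mean and SD. The groups lie apart for Psmb7, Psmd11, Psme3, Psme2b and Psmg3, touch for Psmb5 at 14.35 and overlap for Psmb6, and the triangle for control replicate 3 lies at 7.08 for Psmb2.

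The ATPases of the base, Psmc1 to Psmc6, thread the substrate into the barrel. None of the 6 was called by limma with the brightest probe, 1 had an unadjusted p under 0.05 (Psmc4), and the methods' t-test with Benjamini-Hochberg adjustment called that 1 as lower. Psmc4 had a change of -0.57 (SE 0.20, adjusted p 0.0647) without overlap of the groups, with 14.04 to 14.27 in controls and 13.27 to 13.82 in silenced cells. It was called lower in 4 of 26 alternatives, and under the shift of each array to its 75th percentile its change was 0.01. Psmc3 had a change of 0.35 (SE 0.19, adjusted p 0.213), also without overlap, with 15.51 to 15.78 against 15.80 to 16.19. Psmc1, Psmc2, Psmc5 and Psmc6 changed by -0.04, 0.15, -0.12 and -0.58, with overlapping groups.

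Among the other 11 subunits of the regulatory particle 1 fell. Psmd11, a scaffold subunit of the lid known to raise proteasome assembly in stem cells, had log2 signals of 13.16, 13.46, 13.27 and 13.39 on control arrays 1 to 4 and of 12.29, 12.50, 11.81 and 12.11 on silenced arrays 1 to 4. The groups lay apart and silenced cells had 45.3% of the control signal (change -1.14, SE 0.21, adjusted p 0.00499). Its probe (NM_178616, chr11:80283406-80283920, mm9, plus strand) starts at base 1064, and its other probe was well above background on no array.

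Psmd14, the deubiquitinase that takes ubiquitin chains off the substrate, had 13.97, 14.31, 14.75 and 14.22 in controls and 13.58, 13.47, 14.02 and 13.23 in silenced cells by its brightest probe. That change of -0.74 (SE 0.25) missed the threshold (adjusted p 0.0569) and silenced replicate 3 lay within the control range. Its probe at base 458 had 12.72, 13, 12.74 and 12.70 against 11.74, 11.68, 11.77 and 11.29 and was called (change -1.17, SE 0.20, adjusted p 0.00334). Both probes were lower, and their difference of -0.44 was not called (SE 0.22, adjusted p 0.129).

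The remaining subunits by their brightest probe were Psmd1 (-0.09), Psmd2 (0.01), Psmd3 (-0.66), Psmd4 (0.06), Psmd6 (0.19), Psmd7 (-0.15), Psmd8 (-0.18), Psmd12 (-0.06) and Psmd13 (0.09), all with overlapping groups. Psmd3 was at 13.83 on silenced replicate 4 and at 15.50 to 16.05 on the other 7 arrays. Psmd5, Psmd9 and Psmd10 help to assemble the base and leave the finished particle. Their changes were -0.37, -0.42 and 0.27, with adjusted p-values of 0.152 and above, and the groups did not overlap for Psmd9.

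The activators cap the barrel in place of the regulatory particle, and 1 of 4 fell. Psme3, the nuclear activator also called PA28 gamma, fell, with 11.85, 12.16, 11.54 and 12.04 in controls and 11.37, 11.12, 11.29 and 11.03 in silenced cells (change -0.70, SE 0.21, adjusted p 0.0364). Its other probe, on ENSMUST00000142640, had 9.74, 10.04, 9.58 and 10.00 against 9.60, 9.71, 9.68 and 8.63, with a change of -0.43 that was not called (adjusted p 0.295). The Psme3 call ended with the slide row (adjusted p 0.137) or the replicate number (0.104) as a block, with the 75th percentile shift (change -0.31, adjusted p 0.113), without the mask on dim spots (0.0627), with median centring (0.0723) and with averaged probes (0.114). It also ended when any 1 of 6 arrays was left out, and held without control replicate 3 or silenced replicate 4. In all it held in 11 of 26 alternatives.

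Psme2b, a near-identical copy of Psme2, the beta chain of PA28, had 13.38, 13.69, 13.76 and 13.68 in controls and 14.39, 14.25, 14.67 and 13.86 in silenced cells. All silenced cultures were above all controls, and the change of 0.66 (SE 0.22) lay just outside the threshold (adjusted p 0.0575). It was called higher in 10 of 26 alternatives, among them cyclic loess (0.87, adjusted p 0.00203) and no mask on dim spots (0.85, adjusted p 0.00135). It was not called with the slide row (adjusted p 0.165) or the replicate number (0.116) as a block. Which of both genes gave the signal is uncertain, since no probe carried the name Psme2. Psme1, the alpha chain of the same cap, was at 10.49 on silenced replicate 4 and at 12.77 to 13.46 on the other 7 arrays. Psme4, which caps the barrel as PA200, changed by -0.21 (SE 0.21, adjusted p 0.507) by its brightest probe.

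Of the assembly chaperones, which bring the alpha ring together, Psmg3 rose. It had 10.27, 10.64, 10.85 and 10.89 on control arrays and 11.52, 11.31, 11.67 and 11 on silenced arrays, which do not overlap (change 0.72, SE 0.23, adjusted p 0.0491). Its other probe, on ENSMUST00000182743, had 7.61, 7.91, 8.94 and 8.12 against 8.60, 8.43, 9.06 and 6.94 and overlapped (change 0.11, adjusted p 0.893). The Psmg3 call ended with the slide row (adjusted p 0.169) or the replicate number (0.108) as a block, by the methods' t-test with Benjamini-Hochberg adjustment (0.0598) and with averaged probes (change 0.41, adjusted p 0.42). Leaving out any 1 of 6 arrays ended it too, while it held without control replicate 3 or silenced replicate 4. In all it held in 13 of 26 alternatives, among them cyclic loess (0.85, adjusted p 0.00178). Psmg1, Psmg2 and Psmg4 changed by 0.33, -0.01 and -0.27 and were not called, and Psmg2 had no value on control replicate 1. The inhibitor Psmf1 (PI31) changed by 0.22 and Psmc3ip by 0.26, both with overlapping groups.

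The calls changed with the probe that was read. Over all 83 tested member probes, 12 were lower and 1 was higher, against 18.4% and 4.79% of all 28649 tested probes. Besides those of Psmb7, Psmd11 and Psme3, the lower probes belonged to Psmc3, Psmd1, Psmd2, Psmd3, Psmd4 (2 probes), Psmd14, Psme4 and Psmf1, and in each of these genes the brightest probe was not called. A polyadenylation signal, AATAAA or ATTAAA, marks the end of a transcript. Of the 15 tested member probes with either of them, limma called none, 1 was higher at an unadjusted p under 0.05, and the methods' t-test with Benjamini-Hochberg adjustment called none. Without that signal, 12 of 68 were lower and 1 higher, among them the called probes of Psmb7, Psmd11, Psme3 and Psmg3. Over all tested probes, 6.64% of those with the signal were lower and 10.2% higher, against 20.4% and 3.84% of those without it. Whether the members differed in this from the rest of the array was not tested. Nor was it tested whether the calls of Psmb7, Psmd11 and Psme3 came from the place of their probes.

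The tested RefSeq probes nearest the 5′ and nearest the 3′ end of each gene were set against each other, a comparison chosen after the values had been seen. It could be made for 18 members. For 6 of them the first 30 bases of the 5′ probe and 30 bases of the 3′ probe are shown, 5′ to 3′, since the 5′ probe was called lower, the 3′ probe was not, and the difference between both changes passed the test. Capitals mark a polyadenylation signal.
Psmc3 5′ probe (base 863): acaaagagaagtttgagaacttgggtatcc
Psmc3 3′ probe (base 1565): gctaaagttgatAATAAAaggtgttttctg
Psmd1 5′ probe (base 2303): gctgtattccaaagtcatcaatgacaaaca
Psmd1 3′ probe (base 3162): ccaagtctttggttaagaagatatacgact
Psmd2 5′ probe (base 1667): acttccaccatccttcagaccatcatggag
Psmd2 3′ probe (base 2828): tttttgtttttagcaggctgtcctgcctgc
Psmd4 5′ probe (base 693): gagtttggagtagatcccagtgctgatcct
Psmd4 3′ probe (base 1270): cctttatgatggAATAAAgcttggcaagtt
Psme4 5′ probe (base 4962): aggaagatctttttctacagcagtcaaaga
Psme4 3′ probe (base 6248): aaagtctcagagttaacctagaacctgaca
Psmf1 5′ probe (base 536): gacctataagaacagtgaggagcttcggtc
Psmf1 3′ probe (base 2812): agcctttgcagtaAATAAAtagcactttat

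In mm9 the 5′ and 3′ probes lie at chr2:90896846-90896905 and chr2:90899526-90899585 for Psmc3, chr1:88023048-88023107 and chr1:88035777-88035836 for Psmd1, chr16:20659542-20659601 and chr16:20663355-20663414 for Psmd2, and chr11:30756055-30756114 and chr11:30780168-30780227 for Psme4, all on the plus strand. For Psmd4 they lie at chr3:94837931-94838529 and chr3:94836627-94836686, and for Psmf1 at chr2:151555353-151555412 and chr2:151542485-151542544, both on the minus strand. Bases are counted along the transcript of each probe, and for Psmd4 the probes were designed on different transcripts (NM_008951 and NM_001282017). The part of the transcript (coding or UTR) that each probe reads was not analysed here.

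Psmd2, a scaffold of the base, read differently through its 2 probes. Its 5′ probe had 11.69, 11.80, 10.84 and 11.81 on control arrays 1 to 4 and 10.13, 10.41, 10.22 and 9.74 on silenced arrays 1 to 4, a change of -1.41 (SE 0.27, adjusted p 0.00617). Its 3′ probe had 14.74, 14.90, 14.94 and 15.08 against 15.11, 14.92, 14.91 and 14.76, a change of 0.01 (SE 0.18, adjusted p 0.974). The groups lay apart at the 5′ probe and overlapped at the 3′ probe, and the difference between both changes was -1.42 (SE 0.27, adjusted p 0.00319).

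In Psme4 the pattern was of the same kind. The 5′ probe had 10.77, 11.26, 10.72 and 11.17 in controls and 9.49, 9.60, 9.17 and 8.89 in silenced cells, or 30.9% of the control signal (change -1.69, SE 0.23, adjusted p 0.00149). The 3′ probe had 13.29, 13.55, 13.51 and 13.65 against 13.17, 13.28, 13.69 and 13, which overlap. The change was lower at the 5′ probe by -1.48 (SE 0.23, adjusted p 0.00151).

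In Psmf1, whose product inhibits the core particle in the test tube, the 5′ probe had 10.19, 10.50, 10.19 and 10.43 in controls and 9.24, 9.52, 9.04 and 8.95 in silenced cells (change -1.14, SE 0.20, adjusted p 0.00457). At the 3′ probe, with the AATAAA signal, it had 9.71, 9.75, 10.58 and 10.02 against 10.46, 10.42, 10.7 and 9.38. Silenced replicate 4 was low at that probe, and without this array the change of 0.22 became 0.51. Read through the 5′ probe the gene fell, and through the 3′ probe it did not pass the test (difference -1.36, SE 0.33, adjusted p 0.00951).

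Psmc3, an ATPase, had 13.32, 13.44, 13.49 and 13.53 in controls and 12.72, 12.81, 12.19 and 12.32 in silenced cells at the 5′ probe (change -0.93, SE 0.21, adjusted p 0.0115). At the 3′ probe it had 15.51, 15.52, 15.78 and 15.67 against 16.01, 15.87, 16.19 and 15.80. The groups lay apart at both probes, in opposite directions, and a probe between them at base 1307 had a change of -0.52 (SE 0.21, adjusted p 0.104). The difference between the outer probes was -1.28 (SE 0.22, adjusted p 0.00237).

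Psmd1, a scaffold of the base that holds ubiquitin receptors, had 13.41, 13.40, 13.92 and 13.64 in controls and 12.72, 12.76, 11.95 and 12.34 in silenced cells at the 5′ probe (change -1.15, SE 0.24, adjusted p 0.00911). The 3′ probe had 14.70, 14.80, 15.06 and 14.91 against 14.88, 14.70, 15.16 and 14.36. A probe between them at base 2628 changed by -0.03 (SE 0.22), so the lower reading was found at 1 of 3 RefSeq positions, and the difference of the outer probes was -1.05 (SE 0.28, adjusted p 0.0157).

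Psmd4, a ubiquitin receptor, showed 13.55, 14.05, 13.57 and 13.84 in controls and 13.04, 13.29, 12.78 and 12.84 in silenced cells at the 5′ probe (change -0.76, SE 0.21, adjusted p 0.0283). The 3′ probe had 14.91, 15.02, 15.48 and 15.11 against 15.39, 14.95, 15.41 and 14.98, which overlap (difference -0.82, SE 0.27, adjusted p 0.0353). This difference passed the test in 12 of 25 settings, the reported one included, and missed it with the slide row as a block. Another probe, on ENSMUST00000147960, had 7.89, 8.24, 8.30 and 8.40 against 5.71, 6.34, 5.78 and 4.40 and was well above background on 1 of 4 silenced arrays (change -2.65, SE 0.37, adjusted p 0.00161).

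Psmd3, a scaffold of the lid, had 11.17, 11.77, 9.55 and 11.62 in controls and 9.06, 9.26, 8.81 and 8.75 in silenced cells at the 5′ probe (change -2.06, SE 0.44, adjusted p 0.00975). The 3′ probe had 15.75, 15.95, 16.05 and 15.79 against 15.50, 15.69, 15.89 and 13.83. As control replicate 3 was low at the first and silenced replicate 4 at the second, the difference of -1.40 had a wide error (SE 0.59) and was not called (adjusted p 0.0801). A further probe, on ENSMUST00000149489, was well above background on no array, with a change of 0.35 (SE 0.35, adjusted p 0.518).

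In 16 of the 18 members (88.9%) the 5′ probe had the lower change, and in 7 of these the difference passed the test, those of Psma6, Psmc3, Psmd1, Psmd2, Psmd4, Psme4 and Psmf1. Over 25 settings, the reported one included, the calls of Psmc3, Psmd1, Psmd2, Psme4 and Psmf1 held in 21 or 22, that of Psma6 in 15 and that of Psmd4 in 12. The number called was 12 without control replicate 3 and 4 with the slide row as a block. No member was called the other way by limma, also at an unadjusted p under 0.05 and by the methods' t-test. Over all 4516 genes with such a pair the 5′ probe had the lower change in 80.1%, with 41.7% called in that direction and 4.34% in the other. The median difference was -0.53 in the members and -0.61 over all genes, so the proteasome genes were near the background of the array in this respect. The exceptions were Psmc4 (0.44, SE 0.44, adjusted p 0.436) and Psmg1 (0.04, SE 0.15), whose probes start 80 bases apart.

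**Figure D3:**
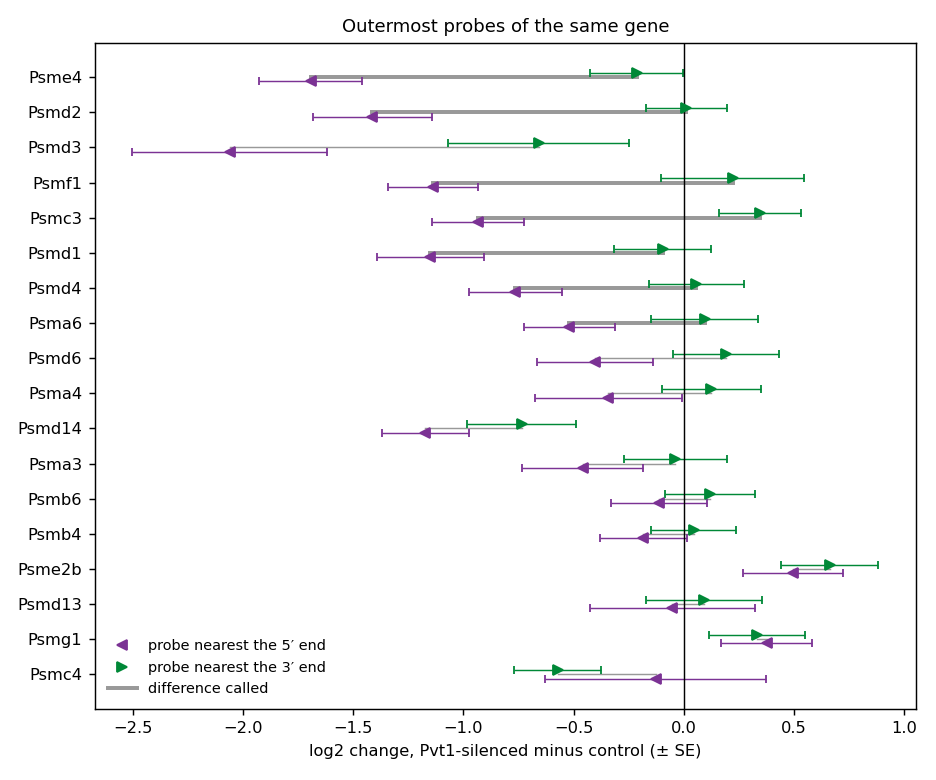
Log2 change in Pvt1-silenced minus control cells (x axis, with bars of 1 SE) of the outermost RefSeq probes of 18 members (y axis). Triangles pointing left are the probes nearest the 5′ end, triangles pointing right those nearest the 3′ end, and a thick line joins the 7 pairs whose difference was called. The left triangles lie to the left in all genes but Psmc4 and Psmg1, and the right triangles lie near 0 in most.

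Within the pairs, the median over members of the 5′ minus the 3′ signal was -1.99 to -1.68 in controls and -2.64 to -1.87 in silenced cells, and over all genes it was -2.01 to -1.60 and -2.64 to -2.24. The groups lay apart over all genes and overlapped over the members, where silenced replicate 2 (-1.87) was above control replicate 3 (-1.99).

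Low values of members were found on 2 of the 8 arrays. On silenced replicate 4, 15 of 82 member probes lay more than 1 log2 below the mean of the other silenced arrays, and on control replicate 3, 6 of 83 did so against the other controls, while no member probe did on the other 6 arrays. Of the 15, 9 lay in the central ninth of the array by spot row and column, which held 12 tested member probes. Among the 15 were the brightest probes of Psma5, Psmc6, Psmd3, Psme1, Psmf1 and Psmg2. Over all probes of silenced replicate 4, 65.6% of those in the central ninth and 22.1% of those elsewhere were low by this measure, while on the other 7 arrays it was at most 8.27% and 8.70%. Without silenced replicate 4 and control replicate 3 together, 5 of 44 members were called higher and 3 lower. Of 28649 probes, 5442 were then higher and 6893 (24.1%) lower, and the share of all genes was not computed.

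**Figure D4:**
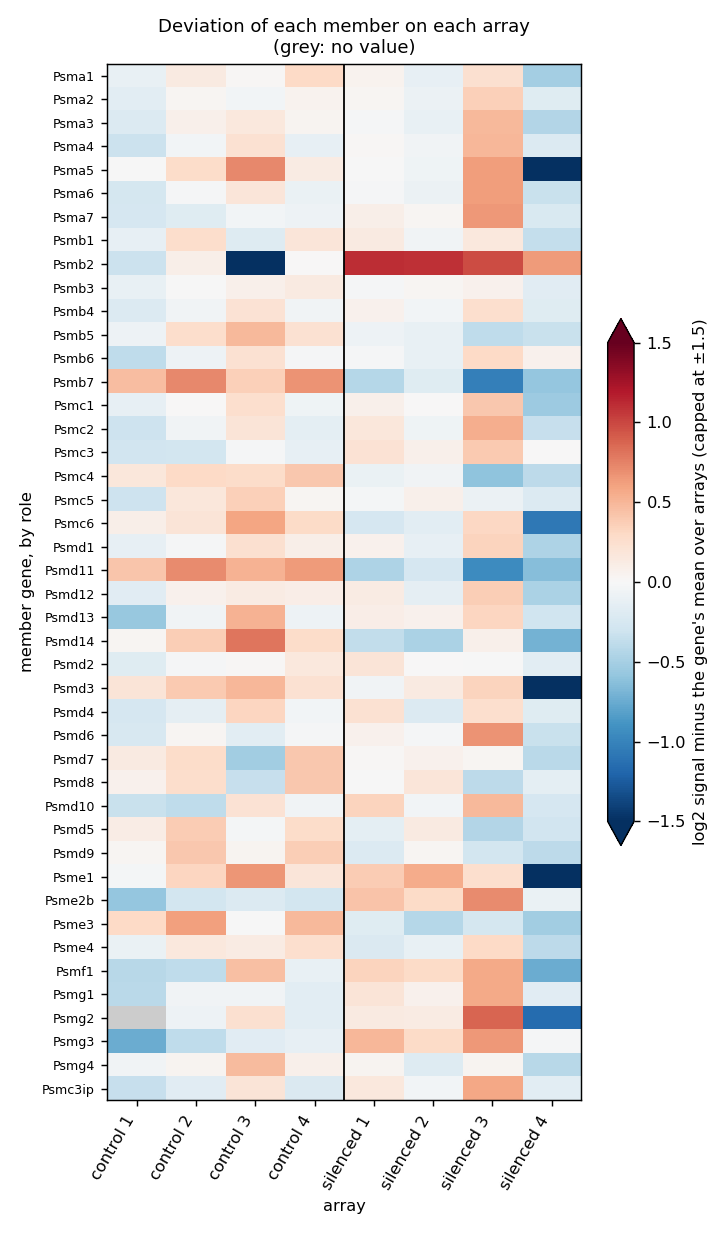
Log2 signal minus the mean of the gene over arrays (colour, capped at 1.5 in each direction) for the 44 tested members (y axis, by role) on the 8 arrays (x axis), with grey for a missing value. Dark blue cells mark Psmb2 on control replicate 3 and Psma5, Psmd3 and Psme1 on silenced replicate 4, and the rows of Psmb7 and Psmd11 change colour at the line between the groups.

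The number of members called depended on how the arrays were scaled. The median change of all probes was -0.19 after quantile normalization, 0.02 after cyclic loess and 0.16 after a shift of each array to its 75th percentile. It was 0.01 with quantile normalization but no mask on dim spots and -0.02 without silenced replicate 4, so the particles are given relative to it. The core particle stood at 0.20 after quantile normalization, 0.13 after cyclic loess and 0.40 after the shift, but at 0.07 with the mean of all probes of each gene, and the regulatory particle at 0.06, 0.05 and 0.27, but at -0.02 with normexp background correction and at -0.12 with that mean. With the shift, 22 of 44 members were called higher and 2 lower, beside 7075 higher and 4365 (15.2%) lower of 28649 probes. The median of the bright probes was 0.44 there, against 0.57 for the core and 0.44 for the regulatory particle. Cyclic loess gave 4 higher and 3 lower members, with 5416 and 5258 (18.4%) of the same probes. Members are counted by gene and the array by probe here. The share of all genes called was not computed under these scalings. Psmb7 and Psmd11 were lower under each of these scalings, with changes of -0.56 and -0.66 after the shift and of -0.92 and -0.96 after cyclic loess.

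**Figure D5:**
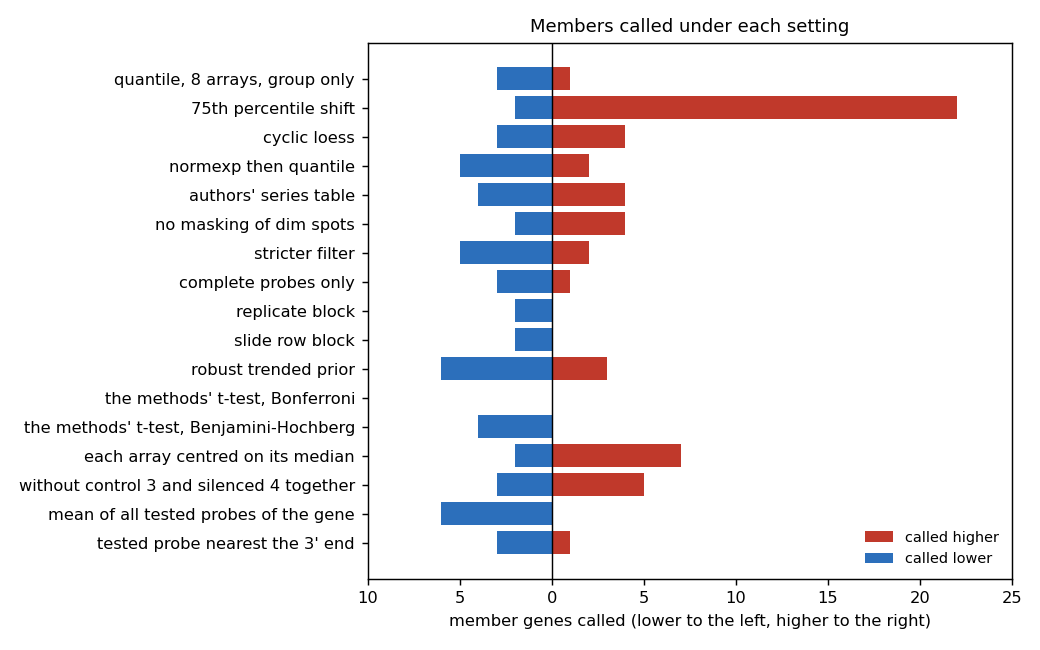
Number of member genes called at an adjusted p under 0.05 (x axis, higher to the right and lower to the left) under each setting (y axis), from the fit with quantile normalization at the top. Counts stay between 0 and 9 in all but 1 setting, where the shift to the 75th percentile gives 22 higher and 2 lower.

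On control arrays the median deviation of core genes relative to that of all probes was -0.13 to -0.005, and on silenced arrays it was -0.09 to 0.37, with the 2 highest values on silenced replicates 3 and 4. For the regulatory particle it was -0.04 to 0.03 and -0.03 to 0.26. The groups overlapped in both. Within the upper row of the slide, which held control replicates 1 to 3 and silenced replicate 1, the core median relative to all probes was 0.08, and within the lower row, with the other 4 arrays, it was 0.27. The regulatory particle stood at 0.06 and 0.05. With the slide row as a block these medians were 0.17 and 0.01, and Psmb7 and Psmd11 kept their calls (adjusted p 0.0438 and 0.0333).

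Genes that work with the proteasome were read from lists fixed by symbol. Of 42 tested genes on these lists 8 fell and 2 rose, where 14% and 5.99% of all genes did, so the counts were near the background of the array. Of the 44 on the array Psmb8 and Ddi1 were not tested. In the immunoproteasome, which replaces the active-site subunits under interferon, Psmb10 rose, with 11.61, 11.64, 11.88 and 11.80 in controls and 12.89, 12.62 and 13.07 on silenced arrays 1 to 3, while silenced replicate 4 had no value (change 1.13, SE 0.21, adjusted p 0.00724).

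Shuttle factors carry ubiquitinated proteins to the proteasome. Among them Ubqln4 fell, with 10.53 to 10.98 in controls and 8.84 to 9.79 in silenced cells (change -1.58, SE 0.24, adjusted p 0.00235). Of 8 accessory and maturation factors 2 fell, the deubiquitinase Uchl5 (-0.61, adjusted p 0.0441) and AI314180 (-2.33, adjusted p 0.0046), the mouse gene for the adaptor ECM29, while Pomp, which matures the core particle, changed by 0.35 and was not called.

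Of the segregase p97 and its cofactors Ufd1l rose (0.74, adjusted p 0.0434). Vcp, p97 itself, had a computed change of -1.49 that was not called (adjusted p 0.248), with 9.76 on silenced replicate 4 and 13.99 to 14.79 on the other 7 arrays. Among regulators of proteasome transcription, Keap1, which holds Nfe2l2 in check, fell (-0.96, adjusted p 0.011), while Nfe2l1 and Nfe2l2, the factors themselves, changed by 0.16 and 0.03 and were not called. Cops2 (-1.06, adjusted p 0.00687) and Cops8 (-0.83, adjusted p 0.0439, with overlapping groups) fell among 9 subunits of the COP9 signalosome, a complex built like the lid.

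The promoters of 37 members, 250 bases before the start in RefSeq (GRCm38.p6), were searched on both strands. The antioxidant response element, spelled TGACNNNGC, was found in 5 (13.5%), against 11.5% of 27025 genes. They were those of Psmb5, Psmb6, Psmc6, Psmd9 and Psmd12. CCAAT was found in 13 (35.1%, against 37.5%) and CACGTG in 3 (8.11%, against 6.86%).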

How the data were processed

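Members and gene lists were chosen with earlier results of these data known. The authors deposited spot intensity on a linear scale, written by Feature Extraction 12.0.0.7 per the file headers (the labels and methods give 10.7.3.1), which subtracts background and removes spatial trends, with 0 or 1 flags per spot as other values. They also deposited a series table of intensity normalized between arrays, in which scale and centring are unstated beyond equal quantiles. All columns could be assigned to a sample (0 left unused).

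Control spots, outlying spots and spots not positive and significant were left out. Log2 values, computed from the intensity the authors deposited, were quantile normalized and averaged by probe, and the 28649 of 56605 probes with no more than 1 value missing per group of 4 (3 needed) went into limma 3.58.1 under R 4.3.3. Its lmFit and eBayes functions fitted the group alone, and p-values were adjusted by Benjamini-Hochberg and read at 0.05. Masking of dim spots, quantile normalization and averaging are as in the study's methods, while the removal of outlying spots and the limma test were chosen here. The slide row was tested as a block, since all arrays shared 1 slide and 1 scan. No member probe was saturated. The labels call the samples of a group biological replicates, but separate passages are not stated. Coordinates are those of the files (mm9).

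Genes were named by rule: every member by its brightest tested probe, with values on all arrays for called members, Psmb5 to Psmb7, and members whose probes differ in call or by at least 1 log2, and of the other lists the called genes and up to 4 others, except that some results of these lists are not reported here. Values of further members were added to describe single arrays.

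Simulated data for this comparison had 28649 probes, of which 200 were changed. The fit recovered 57% of changes of 2 log2 and 9% of changes of 1 log2, with 2 false among 68 calls. A change of 1 log2 could thus be missed. The adjustment is stricter where fewer probes change, and the real fit called 6642 probes. The recovered shares therefore do not give the power of the real fit. The number of arrays limits the precision. The settings varied were the scaling (cyclic loess, or each array moved to its 75th percentile), the background (normexp, offset 50), the series table, no mask, stricter filters, the replicate number or slide row as a block, a robust trended prior, each array left out, the t-test named in the methods, and other ways to read a gene with several probes. The t-test took its p-values from the t distribution with pooled variance, whereas the methods, written for another comparison, took them from permutations of genes, so "the methods' t-test" shares the statistic only. Figures were drawn with matplotlib 3.10.9.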

Additional observations from a re-analysis of the deposited data

Results flagged for a closer look

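In each group of 4 arrays, the highest or lowest value was compared with the rest for every member and for both particle medians. Of 91 such groups 4 held a value far from the others, and chance alone gives about 1 in 20. Psmb2 was at 7.08 on control replicate 3, while its other control values were 10.36 to 10.77. Psme1 was at 10.49 on silenced replicate 4, where silenced replicates 1 to 3 gave 13.05 to 13.36, and Psmd7, a subunit of the lid, was at 12.9 there, where they gave 13.32 to 13.37. The median deviation of the regulatory particle from its mean over arrays was -0.11 on control replicate 1 and 0.16 to 0.21 on the remaining controls. All tested probes moved likewise (-0.072, and 0.165 to 0.18), and relative to them the particle stood at -0.039 and at -0.014 to 0.029.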

How the results depend on the processing

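Psmb7 and Psmd11 kept their direction in all 26 alternatives and their call in 23 of them. The call was lost in the Bonferroni-adjusted t-test and in the fits within each slide row. In those rows 1 group had a single array, assumed to vary like the others. The changes there were -0.95 and -1.27 for Psmb7 and -1.01 and -1.25 for Psmd11 (SE 0.38 in the upper and 0.72 in the lower row). Each gene had a single tested probe, so averaging probes or reading the probe nearest the 3′ end could not change its direction. All probes called (6642 as reported) became 11440 with the 75th percentile shift, 10674 with cyclic loess, 10040 with each array centred on its median, 3106 with the slide row block, 12335 without control 3 and silenced 4 together, 15 with the methods' t-test after Bonferroni and 5185 after Benjamini-Hochberg, 46 and 580 within the upper and the lower slide row, and 3704 to 8838 with 1 array left out. Members called (4) became 24, 7, 9, 2, 8 and 0 in the first 6 of these, 0 within either row, 7 with normexp and with the stricter filter, 8 with the series table, 9 with the robust trended prior and 2 to 5 with 1 array left out. In the same order as for the first 5, core genes called (1) were 11, 1, 2, 1 and 2, with 2 under the robust prior and 1 to 2 with 1 array left out, and regulatory genes called (2) were 10, 4, 4, 1 and 4, with 5 under normexp, the series table, the stricter filter or averaged probes, 6 under the robust prior and 1 to 3 with 1 array left out. Both were 0 after Bonferroni and within either row. All probes called were 7006 with normexp, 8970 with the series table, 5239 with the stricter filter and 7506 with the robust trended prior. With averaged probes the core median was -0.12 and the regulatory median -0.31. The median change became 0.57 and 0.25 for the core and 0.44 and 0.11 for the regulatory particle with the shift and with centring. It was -0.09 to 0.11 and -0.19 to 0.00 with 1 array left out. Listed partner genes called (10) were 18 with the shift, 16 with the series table, 5 with the slide row block, 0 after Bonferroni, 0 and 1 within the rows, and 6 to 10 with 1 array left out. Member pairs called (7) were 4 with the slide row block, 0 after Bonferroni and within either row, 12 without control 3 and silenced 4 together and 5 to 12 with 1 array left out (12 without control replicate 3). The Pvt1 change lost its call after Bonferroni (-2.86) and within the upper row (-2.83), was not tested in the series table, and was -3.14 to -2.66 with 1 array left out. Signs turned, with a call, for Psma3 (0.54), Psmb1 (0.52), Psmb3 (0.50), Psmc1 (0.55), Psmd12 (0.52) and the Psmd1 probe at base 2628 (0.56) under the shift, and for Psmd2 (-0.70) and Psmd4 (-1.12) with probes averaged per gene. The cause was not tested. The pairs, the bright probes, the split by polyadenylation signal, the fits within slide rows and all settings for partner genes and pairs were chosen after seeing the data.

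The labels number the replicates of both groups 1 to 4. The deviations of same-numbered arrays correlated at -0.019 to 0.198, and 4 of 8 arrays correlated best with their own number. These correlations cannot show whether same-numbered cultures were handled together. With the replicate block 2 members, 1 regulatory gene, 6 partner genes, 9 member pairs and 5017 probes were called.

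Of the 8 arrays, silenced replicate 4 had the fewest spots well above background (36.8%, against 42.6% to 45.4%), which limits what it adds for dim probes.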
